A study of Mus musculus with 12 samples.

Results

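The genes described here are 8 myoepithelial and smooth muscle genes, Acta2, Tagln, Cnn1, Myh11, Mylk, Lmod1, Oxtr and Trp63, out of 56065 genes with estimated counts in bulk RNA-seq of the mouse submandibular gland (SMG). They were chosen by symbol, as genes known from this cell type, with no threshold on their values, and were matched to the deposited Ensembl identifiers through the Gencode mouse annotation. After removal of genes with low counts 17893 genes were tested, and 7 of the 8 were among them. Oxtr was not.

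The study asked what sex and the loss of tuft cells (TCs) do to the salivary gland. A total of 12 libraries came from mice aged 8 weeks, in 4 groups of 3 mice. The wild-type groups were female and male C57BL/6J mice. The Pou2f3-/- groups were females and males of C57BL/6J-Pou2f3-/- mice, a strain made by editing on the same background, in which the transcription factor gene that TCs need is lost in every cell of the body, so that the groups do not separate a loss of TCs in the SMG from a loss elsewhere. RNA was taken from whole glands. A change in a gene can therefore come from fewer cells of a type or from less RNA per cell, and these cannot be told apart here. The labels number the mice within each group and name no litter, day or batch.

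Myoepithelial cells are flat, branched epithelial cells that lie between the secretory cells and the basement membrane and squeeze saliva out of acini and ducts when they contract. They carry the basal epithelial program, with the transcription factor p63 and the keratins Krt5 and Krt14, together with the contractile apparatus of smooth muscle. The same contractile genes are expressed by the smooth muscle of blood vessels, so in whole tissue they do not belong to the myoepithelium alone. Their transcription is known to depend on serum response factor (SRF), which binds the CArG box, and on its cofactors of the myocardin family.

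The CArG box is 10 letters long, with 2 C, then 6 letters that are A or T, then 2 G. RefSeq promoter sequences on GRCm38.p6 were given for 5 of the 8 genes (Acta2, Cnn1, Lmod1, Mylk and Oxtr), and the 250 bases before the start of each were searched on both strands. No exact CArG box was found in these 5 windows, and 1.47% of 32851 windows of the same length in the table held one. With at most 1 C or G allowed among the 6 central letters, 8.59% of the windows had a match. Of the 5 genes, Acta2 held 2 such boxes, starting 84 and 34 bases before its start, and the other 4 held none. The Acta2 window is shown with its 2 boxes in capitals, beside that of Cnn1, which holds no match. Acta2 is at chr19:34255374-34255623 on the minus strand and Cnn1 at chr9:22099003-22099252 on the plus strand.
Acta2: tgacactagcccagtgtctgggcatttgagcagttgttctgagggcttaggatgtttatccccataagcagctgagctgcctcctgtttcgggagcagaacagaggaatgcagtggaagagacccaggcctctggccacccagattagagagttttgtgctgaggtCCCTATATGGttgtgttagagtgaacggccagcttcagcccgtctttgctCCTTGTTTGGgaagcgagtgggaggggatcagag
Cnn1: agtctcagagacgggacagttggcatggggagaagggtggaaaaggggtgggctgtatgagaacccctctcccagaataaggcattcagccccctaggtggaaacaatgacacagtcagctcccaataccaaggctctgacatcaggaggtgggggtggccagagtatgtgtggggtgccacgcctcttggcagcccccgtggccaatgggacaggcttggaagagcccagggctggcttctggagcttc
A match is a description of letters and not a binding site. Sequence outside these 250 bases was not searched, so a window without a match does not show that a gene lacks the box.

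Total counts per library ranged from 47032175 to 67882207, and where no read was counted the upper limit, for counting error only, is 3 counts, which came to 2.31 to 4.52 normalized counts. Normalized counts are counts divided by the library size after TMM scaling and set to the mean size, which was 57795426. The TMM factors differed between the groups, from 0.625 to 0.759 in wild-type females, 0.902 to 1.03 in Pou2f3-/- females, 1.04 to 1.45 in wild-type males and 1.11 to 1.25 in Pou2f3-/- males. In wild-type mice Pou2f3 had 1, 0 and 2 counts (females) and 1, 10 and 0 (males), and in Pou2f3-/- mice it had 0 in each female and 0, 3 and 1 in the males, so that at this depth its counts do not check the genotype. The signal recognition particle RNA Rn7s1 alone took 27.0 to 34.5%, 31.3 to 39.1%, 11.8 to 21.3% and 20.5 to 26.9% of the counts in the 4 groups in the same order. Folds are 2 to the power of the log2 fold change of edgeR's quasi-likelihood test, fitted to all 12 libraries. Adjusted p is Benjamini-Hochberg adjusted over all 17893 genes, and a gene is called when it is under 0.05.

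Per length, Acta2, smooth muscle alpha-actin, had the highest level in every group, at 1422 ± 253 normalized counts per kilobase of its canonical transcript in wild-type females and 4055 ± 477 in wild-type males (SD, n = 3). Tagln, the actin-binding protein transgelin, was at 591 ± 135 and 2245 ± 449 per kilobase, and Myh11, the smooth muscle myosin heavy chain, at 416 ± 70.9 and 1162 ± 119. Mylk, the kinase that starts contraction by phosphorylating the myosin light chain, and Cnn1, the actin- and myosin-binding calponin, came next. In wild-type females they were at 331 ± 54.4 and 325 ± 109 per kilobase, less apart than their SDs. Trp63, which encodes p63, was at 189 ± 19.9 per kilobase in wild-type females and 143 ± 6.34 in wild-type males. Lmod1, leiomodin, which nucleates actin filaments, was at 57.8 ± 4.15 and 109 ± 8.91 per kilobase. Oxtr, the oxytocin receptor that contracts the myoepithelium of the mammary gland, was at 1.83 ± 2.0 and 0.404 ± 0.271 per kilobase.

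**Figure D1:**
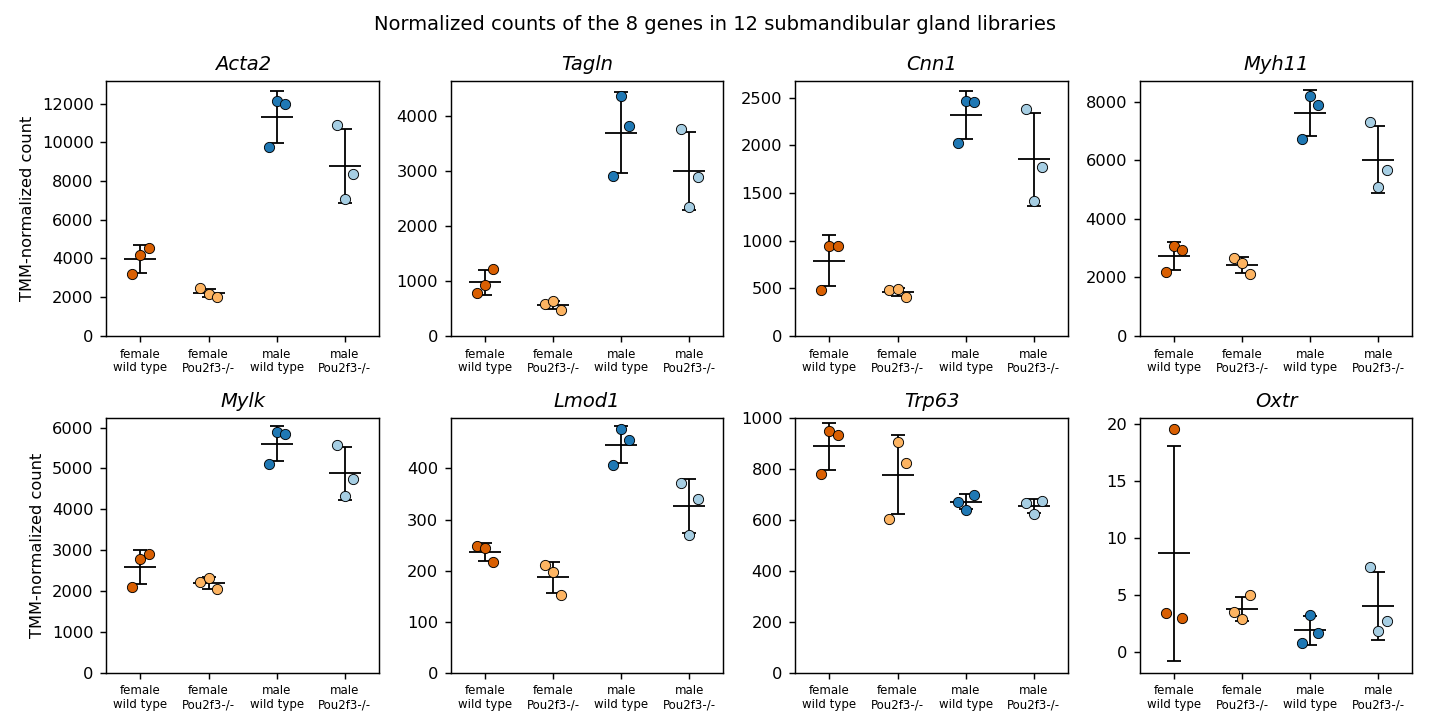
TMM-normalized counts of the 8 genes (vertical axis, linear and separate for each gene) in the 12 libraries, by sex and genotype. Points are mice, the long dash is the mean and the bars are the SD of 3 mice. The 6 contractile genes are higher in every male than in every female, whereas Trp63 and Oxtr are not.

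The largest difference was between the sexes. In wild-type mice all 6 contractile genes were higher in males, by 1.89-fold for Lmod1 to 3.80-fold for Tagln, and each was called, whereas 20.5% of all tested genes were called higher in males. The median log2 fold change of the 7 tested genes was 1.48, and that of all tested genes was 0.06. With library totals, which moved the median of all genes to 0.95, the folds were 3.47 for Lmod1 to 7.03 for Tagln, with Acta2 at 5.32 and Cnn1 at 5.54. The 3 male libraries were all above the 3 female libraries for each of the 6 genes, which held for 26.7% of all tested genes.

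Acta2 (ENSMUSG00000035783.10, chr19:34217737-34232990, minus strand, GRCm39) had 3178, 4177 and 4540 normalized counts in wild-type females and 9770, 12156 and 11986 in wild-type males. The lowest male was thus far above the highest female. The difference was 2.85-fold (log2 fold change 1.51, SE 0.18, adjusted p = 2.6e-05). Tagln (ENSMUSG00000032085.6, chr9:45840909-45847404, minus strand) had 779, 932 and 1218 normalized counts in wild-type females and 2913, 4380 and 3825 in wild-type males. It had the largest fold of the 7 tested genes, with no overlap (log2 fold change 1.93, SE 0.21, adjusted p = 1.4e-05). Cnn1 (ENSMUSG00000001349.6, chr9:22010512-22020926, plus strand) had 482, 939 and 948 normalized counts in the females and 2030, 2467 and 2457 in the males. Its female replicate 1 was well under the other two females, and its fold was 2.94 (95% interval 2.07 to 4.19, adjusted p = 0.00022).

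The motor and its kinase followed the same order. Myh11 (ENSMUSG00000018830.11, chr16:14012399-14109236, minus strand) had 2198, 3066 and 2917 normalized counts in wild-type females and 6728, 8202 and 7901 in wild-type males. No male overlapped a female, and the fold was 2.79 (log2 fold change 1.48, SE 0.16, adjusted p = 1.6e-05). Mylk (ENSMUSG00000022836.12, chr16:34565580-34822790, plus strand) had 2102, 2771 and 2893 normalized counts in the females against 5113, 5886 and 5834 in the males. The groups stood apart by a smaller fold of 2.17 (95% interval 1.77 to 2.65, adjusted p = 3.4e-05). Lmod1 (ENSMUSG00000048096.8, chr1:135252509-135295907, plus strand) had 248, 244 and 217 normalized counts in the females and 407, 478 and 455 in the males. Its fold of 1.89 was the smallest of the 6 contractile genes (95% interval 1.49 to 2.38, adjusted p = 0.00055).

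Trp63 (ENSMUSG00000022510.15, chr16:25502513-25710852, plus strand) went the other way. It had 782, 952 and 936 normalized counts in wild-type females and 673, 641 and 700 in wild-type males. The males were under the females without overlap, by a small margin (log2 fold change −0.41, SE 0.13, adjusted p = 0.032), where 16.0% of all genes were called lower in males and 20.9% were lower without overlap. This call did not hold when wild-type female replicate 2 or 3 or any single wild-type male was left out, with log2 fold changes of −0.44 to −0.38 in those fits. With library totals in place of TMM the direction turned, to a log2 fold change of 0.50 (adjusted p = 0.013).

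In Pou2f3-/- mice the order of the sexes was the same. All 6 contractile genes were called higher in males, where 23.2% of all genes were, with a median over the 7 tested genes of 1.31 on the log2 scale against −0.02 over all genes. Acta2 had 2452, 2147 and 2025 normalized counts in Pou2f3-/- females and 10879, 7098 and 8386 in Pou2f3-/- males, a fold of 3.98 (95% interval 3.05 to 5.20, adjusted p = 3.0e-06). Tagln had 577, 627 and 480 in the females and 3772, 2348 and 2898 in the males, a fold of 5.35 (95% interval 3.89 to 7.36, adjusted p = 2.6e-06). Cnn1 differed 4.03-fold, Myh11 2.48-fold, Mylk 2.22-fold and Lmod1 1.75-fold. Every Pou2f3-/- male was above every Pou2f3-/- female for each of the 6, as for 27.3% of all genes. Trp63 was not called (log2 fold change −0.25, SE 0.14, adjusted p = 0.16), but with upper-quartile scaling it was (−0.41, adjusted p = 0.026), as it was without Pou2f3-/- female replicate 1 (−0.34).

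**Figure D2:**
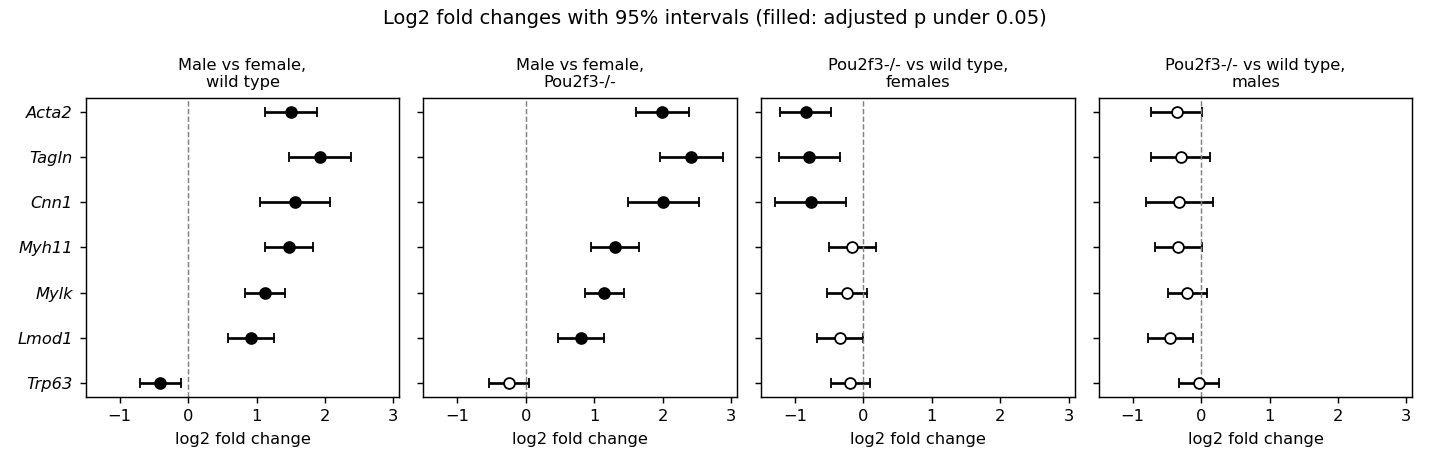
Log2 fold changes (horizontal axis) of the 7 tested genes in 4 comparisons, with 95% intervals. Filled points are called at an adjusted p under 0.05. The 6 contractile genes lie right of 0 in both comparisons of the sexes, and Acta2, Tagln and Cnn1 are the filled points left of 0 in Pou2f3-/- females.

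Between the genotypes, Acta2, Tagln and Cnn1 fell in Pou2f3-/- females, and no member was called in males. In females 3 of the 7 tested genes were called and all 3 were lower, whereas 36.9% of all genes were called and 19.3% were called lower. The median log2 fold change was −0.34 over the 7 genes and 0.03 over all genes. With 3 of 7 called in either direction the share is near the background, so the count by itself is not a result about these genes as a list.

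Acta2 was at 2452, 2147 and 2025 normalized counts in Pou2f3-/- females, under all 3 wild-type females (3178 to 4540). The decrease was 44.3% in size (log2 fold change −0.84, SE 0.17, adjusted p = 0.0026). Tagln fell to 577, 627 and 480 from 779, 932 and 1218, again without overlap (log2 fold change −0.80, SE 0.21, adjusted p = 0.0098). All 3 libraries were under those of the other group for 24.1% of all tested genes. Cnn1 was at 477, 496 and 408 in Pou2f3-/- females, where wild-type replicate 1, at 482, lay within their range and the other two wild-type females were higher (log2 fold change −0.77, SE 0.24, adjusted p = 0.022). The call of Cnn1 was lost without Pou2f3-/- replicate 3, wild-type replicate 2 or wild-type replicate 3, with log2 fold changes of −0.75, −0.68 and −0.66.

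Myh11, Mylk, Lmod1 and Trp63 did not pass the test in females. Myh11 had 2663, 2492 and 2122 normalized counts in Pou2f3-/- females, overlapping the wild types (log2 fold change −0.17, 95% interval −0.51 to 0.18, adjusted p = 0.44). Mylk had 2227, 2314 and 2036, also overlapping (−0.24, interval −0.53 to 0.05, adjusted p = 0.18), and it was called only without wild-type replicate 1, at −0.43. Lmod1 had 210, 198 and 152, under the wild-type range of 217 to 248 (−0.34, interval −0.68 to 0.00, adjusted p = 0.11). Trp63 had 605, 907 and 823, and replicate 1 was the low value (−0.19, interval −0.48 to 0.10, adjusted p = 0.29).

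The scale matters for this comparison. With library totals alone the median of all genes rose to 0.53 in Pou2f3-/- females. None of the 7 genes was then called, where 6843 of all 17893 genes were called higher and 360 lower. Acta2 was then at −0.32 (adjusted p = 0.18), Tagln at −0.28 (0.24) and Cnn1 at −0.25 (0.40) on the log2 scale, whereas Myh11 was at 0.35 (0.13). Under both scalings the 3 genes were lower than Myh11 by a like amount, which had to follow, since a library scaling moves all its genes alike. For this reason the genes were also set against Myh11 within each library, a ratio that no library scaling can change. Myh11 was picked after its values were seen.

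The ratio of Acta2 to Myh11 counts was 1.45, 1.36 and 1.56 in wild-type females. Male ratios were 1.45, 1.48 and 1.52 (wild type) and 1.49, 1.39 and 1.48 (Pou2f3-/-). In Pou2f3-/- females it was 0.921, 0.861 and 0.954, under each of the 9 other libraries. Tagln to Myh11 was 0.217 to 0.252 in Pou2f3-/- females and 0.304 to 0.417 in wild-type females. Cnn1 to Myh11 was 0.179 to 0.199 in Pou2f3-/- females and 0.219 to 0.325 in wild-type females, and in both groups of males it was 0.277 to 0.326. For these 3 genes, then, the Pou2f3-/- females were the lowest of the 4 groups with no overlap. The share of all tested genes with such a ratio to Myh11 was not counted. These 3 genes, like Myh11, were set apart after their values were seen.

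Mylk and Lmod1 did not show this. Mylk to Myh11 was 0.836 to 0.959 in Pou2f3-/- females against 0.904 to 0.992 in wild-type females, and Lmod1 to Myh11 was 0.0718 to 0.0794 against 0.0744 to 0.113. In the fit with counts scaled to Myh11, Acta2 fell by 0.67 on the log2 scale in Pou2f3-/- females (SE 0.13, adjusted p = 0.009), Tagln by 0.63 (SE 0.15, adjusted p = 0.017) and Cnn1 by 0.58 (SE 0.16, adjusted p = 0.028), where 4.49% of all genes were called lower. Leaving out 1 library kept Acta2 called in 11 of 12 fits, the exception being wild-type female replicate 3 (adjusted p = 0.053). Tagln was kept in 9 of 12 (lost without Pou2f3-/- female replicate 1 or 3 or wild-type female replicate 3, adjusted p up to 0.096). Cnn1 was kept in 7 of 12 (lost without any single Pou2f3-/- female or without wild-type female replicate 2 or 3, adjusted p up to 0.14). Over the 12 fits the log2 fold changes were −0.72 to −0.62 for Acta2, −0.74 to −0.51 for Tagln and −0.73 to −0.47 for Cnn1. With Mylk in place of Myh11 the 3 log2 fold changes were −0.60, −0.56 and −0.51, with adjusted p of 0.0056, 0.013 and 0.030. Mylk, like Myh11, was a member not called in these females, and was picked after its values were seen. A negative sign for the 3 called genes follows from such a choice of reference. Mylk also varied with Myh11 inside the groups (r = 0.95), so these p-values are not independent of those relative to Myh11. In males the fit scaled to Myh11 gave −0.03 for Acta2, 0.04 for Tagln and 0.00 for Cnn1, with adjusted p of 0.90, 0.89 and 0.99. Between the wild-type sexes Acta2 and Cnn1 were at 0.03 and 0.10 relative to Myh11 (adjusted p = 0.85 and 0.56), whereas Tagln was higher in males, at 0.43 (adjusted p = 0.016). Between the Pou2f3-/- sexes Acta2 and Cnn1 were at 0.67 and 0.68 (adjusted p = 0.00037 and 0.0013) and Tagln was 114% higher in males (adjusted p = 2e-05), where 2.22% of all genes were called higher.

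**Figure D3:**
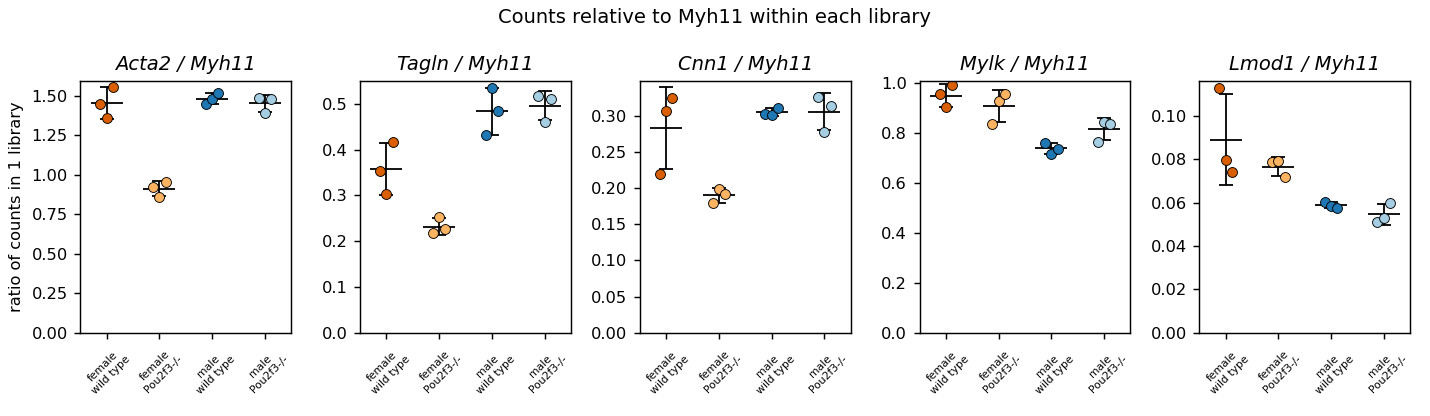
Counts of 5 genes divided by the count of Myh11 in the same library (vertical axis, linear, separate for each gene), by sex and genotype. Points are mice, the dash is the mean and the bars are the SD of 3 mice. Acta2, Tagln and Cnn1 are lowest in the 3 Pou2f3-/- females, and Lmod1 is lower in each male than in each female.

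In males none of the 7 tested genes was called between the genotypes, as were 0.235% of all genes. At an unadjusted p under 0.05 the count was 1, and DESeq2 called 0. All 7 log2 fold changes were negative, with a median of −0.32 against −0.04 over all genes. Acta2 had 10879, 7098 and 8386 normalized counts in Pou2f3-/- males against 9770 to 12156 in wild-type males, where the highest Pou2f3-/- male lay inside the wild-type range (log2 fold change −0.36, 95% interval −0.73 to 0.01, adjusted p = 0.45). Lmod1 had 371, 269 and 340 against 407, 478 and 455, and was the only member without overlap (−0.45, interval −0.78 to −0.12, unadjusted p = 0.011, adjusted p = 0.25), as were 7.95% of all genes in that direction. Trp63 was at 669, 623 and 675 against 673, 641 and 700 (−0.03, interval −0.33 to 0.26, adjusted p = 0.95).

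With TMM and all 12 libraries the genotype effect was not shown to differ between the sexes for any member. The female change minus the male change was −0.48 for Acta2 (SE 0.24, adjusted p = 0.16), −0.49 for Tagln (SE 0.29, adjusted p = 0.22) and −0.45 for Cnn1 (SE 0.33, adjusted p = 0.32) on the log2 scale. It was 0.17 for Myh11, −0.04 for Mylk, 0.11 for Lmod1 and −0.16 for Trp63. None was called, at an unadjusted p under 0.05 the count was also 0, and DESeq2 called 0, where 25.7% of all genes were called by edgeR. Some alternatives passed the threshold. Without wild-type female replicate 1 Acta2 and Cnn1 were called (−0.71 and −0.81), and with library totals Myh11 and Mylk were, in the other direction from those (0.79 and 0.59). Acta2 was also called with the authors' normalization as offsets (−0.70, adjusted p = 0.037). Relative to Myh11 it was called too (−0.64, adjusted p = 0.049, where 6.1% of all genes were called lower). That call stood in only 1 of 12 fits with a library left out, with values of −0.69 to −0.59. Relative to Mylk, Acta2 was not called (−0.43, adjusted p = 0.10).

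Oxtr (ENSMUSG00000049112.10, chr6:112450644-112468040, minus strand) was near the limit of detection. Its counts were 3, 15 and 2 (wild-type females), 3, 3 and 4 (Pou2f3-/- females), 1, 4 and 2 (wild-type males) and 8, 2 and 3 (Pou2f3-/- males). Only wild-type female replicate 2 and Pou2f3-/- male replicate 1 were above 4 counts. Without the low-count filter its adjusted p ranged from 0.16 to 1 over the 5 comparisons, and no difference was detectable at this depth.

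Inside a group the contractile genes varied together. After the group means were subtracted, the correlation of log2 values over the 12 libraries was 0.84 to 0.99 for the 10 pairs among Acta2, Tagln, Cnn1, Myh11 and Mylk. For the 5 pairs with Lmod1 it was 0.38 to 0.62, and for the 6 pairs with Trp63 −0.23 to 0.40. The values of all genes in a library share its depth and scaling factor. Female wild-type replicate 1 held the lowest value of 5 of the 6 contractile genes in its group, and Pou2f3-/- female replicate 3, wild-type male replicate 1 and Pou2f3-/- male replicate 2 held the lowest of all 6 in theirs. The genes with the profile most like the mean of the 6 were Agtrap, Dcps and Retreg2 (r = 0.97 each), Mtarc2 (0.96) and Lsr (0.95). For Trp63 they were Zfp26 (0.96), Gm46560 (0.95) and Casq2 (0.93). These are the top values of a ranking over all tested genes, so a high r follows in part from the selection. The r of member pairs was not set against that of other gene pairs, so it is not shown to be particular to these genes.

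Other contractile genes were counted from a list of 25, of which 24 were tested. Between wild-type males and females 16 were called higher and 2 lower in males, with a median log2 fold change of 0.83, where 20.5% of all genes were called higher and 16.0% lower. Actg2, the enteric smooth muscle actin, had 24, 31 and 30 counts in wild-type females, whereas wild-type males had 446, 561 and 459 (log2 fold change 3.41, SE 0.28, adjusted p = 1.4e-06). No library overlapped, and the fold of 10.6 exceeded that of each of the 8 genes. Synm, an intermediate filament protein, was 3.85-fold higher and Tagln2, a relative of transgelin, 2.81-fold higher. Cald1, caldesmon, which holds actin and myosin apart, was lower in males (log2 fold change −1.35, SE 0.13), as was Cnn3 (−0.42, SE 0.11), which turned to 0.48 with library totals.

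In Pou2f3-/- females 9 of these 24 were called lower and 3 higher, with a median of −0.25, where 19.3% of all genes were called lower and 36.9% in either direction. Csrp1, a LIM protein of the actin cytoskeleton, was at −0.77 on the log2 scale, Flna, the actin crosslinker filamin A, at −0.66 and Myl6, a myosin light chain, at −0.47. Among those called higher, Smtn, smoothelin, and Pdlim7 were both at 0.79. With library totals the list had 4 called higher and 0 lower, where 6843 of all 17893 genes were called higher and 360 lower. Myl6 turned to 0.02, so the direction of the list in females depends on the scaling. In males 0 of 24 were called between the genotypes by edgeR, with 7 at an unadjusted p under 0.05, and 0 by DESeq2.

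With TMM, genes that control contraction gave a mixed picture. Of 27 listed, 26 were tested, and between wild-type males and females 10 were called higher and 5 lower in males (median 0.11), against 20.5% and 16.0% of all genes. Over the alternatives other than scaling to Myh11 or Mylk, 8 to 17 were called higher and 1 to 6 lower (medians −0.04 to 1.01). With library totals 12121 of all 17893 genes were called higher in wild-type males and 294 lower. Adra1a, the alpha-1A adrenergic receptor, was 6.52-fold higher in males, Cacna1c, the L-type calcium channel, 5.11-fold higher and Ppp1r12b, a subunit of myosin phosphatase, 1.95-fold higher. Ppp1cb, the catalytic subunit of that phosphatase (log2 fold change −1.53), and Rock1, a kinase that inhibits that phosphatase (−0.64), were among those lower in males, of which Rock1 turned to 0.24 with library totals. Between the female genotypes 6 were called higher and 7 lower, where 36.9% of all genes were called. Adra1a, Cacna1c and Ppp1r12b were higher, by 0.84, 0.84 and 0.59 on the log2 scale, and Rhoa and Gna11 were among those lower, at −0.78 and −0.69. With library totals 11 were called higher and 2 lower between the female genotypes, where 6843 of all 17893 genes were called higher and 360 lower.

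Of 12 genes for SRF and its cofactors 11 were tested, and 6 were called higher and 1 lower in wild-type males, with a median of 0.32 (20.5% and 16.0% of all genes). DESeq2 called 5 of the 11. Over the alternatives other than scaling to Myh11 or Mylk, 4 to 10 were called higher and 0 to 1 lower (medians 0.22 to 1.22). Mrtfb was 2.71-fold higher, Mrtfa 1.52-fold and Tgfb1i1 1.63-fold, and Smad3 was lower (log2 fold change −0.39), but at 0.53 with library totals. Srf itself was at 597 ± 19.3 normalized counts in wild-type males against 470 ± 64.6 in the wild-type females (0.34 on the log2 scale, SE 0.12, adjusted p = 0.045). Between the female genotypes 1 of 11 was called, against 36.9% of all genes. It was Mrtfb (0.29 higher, SE 0.10, adjusted p = 0.038). Srf was not called (log2 fold change −0.06, 95% interval −0.33 to 0.21). With library totals 9 of the 11 were called higher in these females, where 6843 of all 17893 genes were called higher and 360 lower.

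Basal epithelial genes other than Trp63 numbered 15, all tested. Between wild-type males and females 10 were called higher and 1 lower in males, with a median of 0.53, against 20.5% and 16.0% of all genes. With TMM this was the opposite direction from Trp63, but with library totals Trp63 turned to 0.50. Over the alternatives other than scaling to Myh11 or Mylk the list had 8 to 14 called higher and 0 to 2 lower (medians 0.41 to 1.42). Lamb3, a laminin chain of the basement membrane, was 2.02-fold higher and Sfn 2.90-fold higher. Krt15 was lower (log2 fold change −2.88), and Krt5 was not called (0.08, 95% interval −0.21 to 0.37). Krt14 was at 1.37-fold (adjusted p = 0.0089). In Pou2f3-/- females 2 were called higher and 3 lower, a share near the 36.9% of all genes called. Dst and Cdh3 were at 0.94 and 0.37 and Perp, Krt17 and Krt14 at −0.73, −0.60 and −0.34 on the log2 scale. With library totals 9 were called higher and 0 lower, where 6843 of all 17893 genes were called higher and 360 lower, and Krt14 was at 0.15.

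Cells other than myoepithelium can hold the same transcripts, and their markers were counted beside them. The summed level of 12 mural markers (vascular smooth muscle and pericytes) was 4017 to 4884 normalized counts in wild-type females and 3453 to 4500 in Pou2f3-/- females. It was 4083 to 5206 in wild-type males and 4421 to 4971 in Pou2f3-/- males, so that all 4 ranges overlap. The sum joins markers that went opposite ways between the wild-type sexes. Means in wild-type females and males were 1279 and 631 for Rgs5, and 139 and 1140 for Mcam. Of the 10 tested, 2 were called higher in wild-type males, Casq2 and Mcam (log2 fold changes 3.28 and 3.04), and 2 lower, Abcc9 and Rgs5 (−1.51 and −1.02), with a median of 0.09, where 20.5% of all genes were called higher and 16.0% lower. With library totals 8 of the 10 were called higher and 1 lower, at a median of 1.00, where 12121 of all 17893 genes were called higher and 294 lower. Des, desmin of muscle, and Notch3 were not called between the wild-type sexes (0.37, SE 0.33, and 0.00, SE 0.14). In Pou2f3-/- females 1 of 10 mural markers was called, against 36.9% of all genes. It was Rgs5, at −0.55 on the log2 scale. With library totals 5 were called higher and 0 lower, where 6843 of all 17893 genes were called higher and 360 lower. Of 10 endothelial markers 0 were called higher and 6 lower in wild-type males (median −0.61), where 16.0% of all genes were called lower, among them Pecam1 (−1.01), Cdh5 (−0.91) and Tek (−0.95). With library totals 1 was called higher and 0 lower, at a median of 0.30, against 12121 and 294 of all 17893 genes. Between the female genotypes only Kdr of the 10 was called (−0.51), where 36.9% of all genes were, and with library totals it was at 0.01.

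Fibroblast markers had 1 of 8 called higher and 1 lower in wild-type males (Col1a1, 0.53, and Dpt, −1.68), where 20.5% and 16.0% of all genes were called, and between the genotypes edgeR called only Dpt, in males, at 1.84 (SE 0.29, adjusted p = 0.017), where 0.235% of all genes were called. All 8 fibroblast markers were at an unadjusted p under 0.05 in that male comparison, with positive log2 fold changes (median 0.77), and DESeq2 called 5. With any single wild-type male, or Pou2f3-/- male replicate 2 or 3, left out edgeR called 0 of the 8, and without Pou2f3-/- male replicate 1 it called 5. Their sum was 29794 to 53287 normalized counts in Pou2f3-/- males and 24066 to 26428 in wild-type males. Of 12 skeletal muscle markers 2 were tested. Acta1, skeletal actin, had 0 to 12 counts in the 6 females and 71 to 143 in the 6 males, whereas Ckm, muscle creatine kinase, had 50 to 68 in the females and 16 to 42 in the males. Myh2, Myh4 and Mylpf had at most 18 counts in any library. Acta1, Actg2 and Acta2 encode closely related actins, and reads assigned to Acta1 or Actg2 may in part derive from Acta2, which was not tested. Markers of the secretory cells also differed between the sexes. Of 7 acinar markers 0 were called higher and 6 lower in wild-type males (median −1.18), and of 7 duct markers 3 were higher and 1 lower (median 1.39), against 20.5% higher and 16.0% lower over all genes. Their sums are carried by a few abundant genes. Summed acinar markers were at 2875213 to 3564276 normalized counts in wild-type females and 666567 to 1135936 in wild-type males, and summed duct markers at 258358 to 479285 and 2334260 to 4019361. In Pou2f3-/- females acinar markers summed to 1805695 to 2246997, under the wild-type females, and duct markers to 279782 to 516216, overlapping them. The part of each of these cell types in the differences above was not tested.

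**Figure D4:**
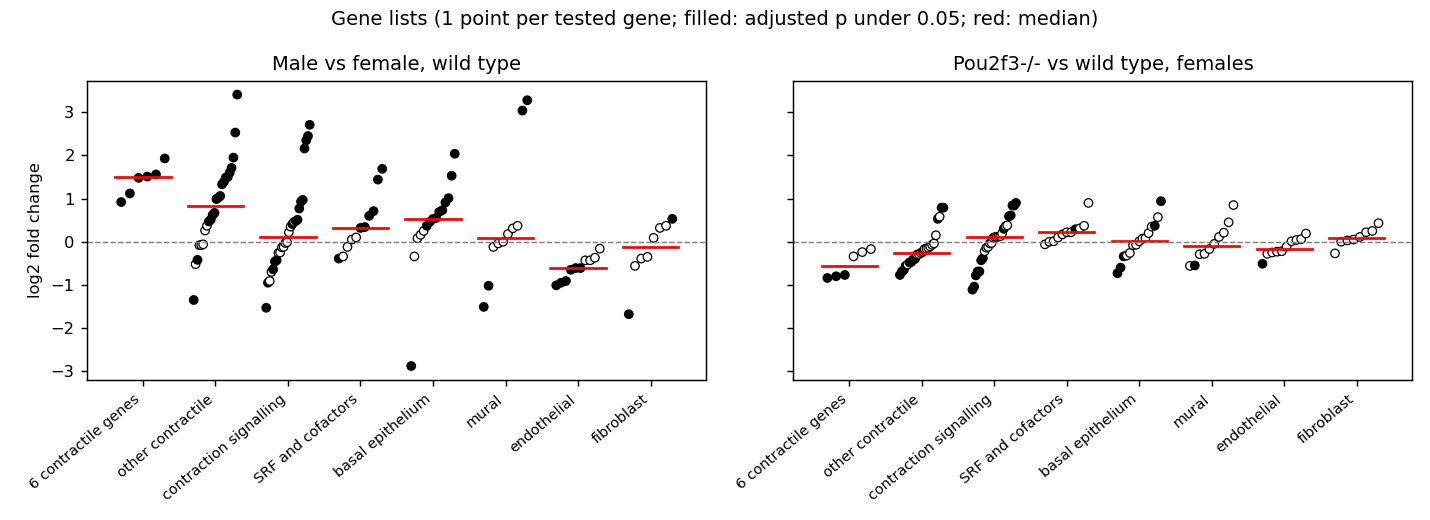
Log2 fold changes (vertical axis) of the tested genes of 8 lists (the 6 contractile genes, other contractile, contraction control, SRF cofactor, basal epithelial, mural, endothelial and fibroblast genes), 1 point per gene, in wild-type males against wild-type females (left) and in Pou2f3-/- against wild-type females (right). Filled points are called at an adjusted p under 0.05 and red lines are medians. The 6 contractile genes have the highest median of the 8 on the left and the lowest on the right (−0.56). Acinar markers, which are not drawn, had a lower median in the female comparison (−0.73). Skeletal muscle markers, also not drawn, are not ranked, since only 2 were tested and Acta1 had 0 to 12 counts in females.

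Several members share exonic sequence with genes on the opposite strand. The study made stranded libraries, but the sources used here do not say how strand was set in the counting. Acta2 overlaps Stambpl1, which had 53 to 108 counts in females and 224 to 284 in males. Cnn1 overlaps Elof1 (545 to 905 in females, 991 to 1139 in males), and Tagln overlaps Pcsk7 (451 to 680 in females, 818 to 1267 in males) and Gm48529 (29 to 113 in all). The share of reads that could be exchanged between such partners was not tested. Tagln and Cnn1 lie on the chromosome of the edited gene, 2.72 and 21.01 Mb from Pou2f3, and Acta2 on another.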

How the data were processed

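Whole SMG RNA from 12 mice was sequenced after removal of ribosomal RNA (per the labels, as polyA RNA). The authors assigned reads with Salmon 1.10.1 to Gencode M35 on GRCm39 and deposited estimated counts per gene. They also deposited a normalized signal, the counts divided by a factor that varies by gene and library, which was used here as an alternative. Estimated counts were rounded and fitted in edgeR 4.0.16 (R 4.3.3) by the quasi-likelihood test, with TMM, filterByExpr, 1 mean per group, all 12 libraries and Benjamini-Hochberg adjustment in each contrast. The standard error is the absolute log2 fold change over the square root of F. Exact tests on 3 mice against 3 cannot go under 0.1 and were not used. The edgeR fit was tested on simulated counts, with changes larger than those of the members between the genotypes. Positions are from Gencode M39, which holds 55563 of 56065 identifiers, and promoters from RefSeq (GRCm38.p6).

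The genes, lists and tests were chosen with earlier results of these data known. Named from each list were all 8 members, up to 3 genes called higher and 3 lower with the smallest adjusted p, and the genes most like the members. Named outside that rule, after their values were seen, were Srf, Krt5, Des and Notch3 as defining genes, Ckm, Myh2, Myh4 and Mylpf for skeletal muscle, antisense partners, and Rn7s1. Some genes that this rule names are not reported here. The p-values set a difference between groups against the spread between mice, which the fit estimates with help from all tested genes. Alternatives were RLE, upper-quartile and protein-coding TMM scaling, the 20 most abundant genes left out, the authors' factors, other filters (none, or 10 counts in every library), separate fits, DESeq2 1.42.0, a replicate block and each library left out. Library totals and scaling to Myh11 or Mylk were added after seeing the data. Figures used Python 3.11.15 and matplotlib 3.10.9.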

Additional observations from a re-analysis of the deposited data

Results flagged for a closer look

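Genotype effects that differed between the sexes by edgeR's interaction term (female change minus male change, log2 scale) were found among the genes listed beside the members. They numbered 6 of 24 contractile genes, 11 of 26 that control contraction, 1 of 11 SRF cofactors, 3 of 15 basal, 0 of 10 mural, 0 of 10 endothelial and 1 of 8 fibroblast genes, where 25.7% of all tested genes were called, so that the counts of most lists are at or under the background. At an unadjusted p under 0.05 the mural and endothelial counts were 1 and 2, and DESeq2 called 0 of each. In the other lists DESeq2 called 10 contractile, 12 control, 1 SRF cofactor, 3 basal and 4 fibroblast genes. Over all 17893 genes it called 2535 higher and 3004 lower. All 8 fibroblast values were negative, with a median of −0.72. Among contractile genes they included Smtn (1.14), Myl6 (−0.44), Csrp1 (−0.62) and Cald1 (−0.52). Smtn was at 1359 normalized counts in Pou2f3-/- females and 783 in wild-type females, but at 2011 in Pou2f3-/- males and 2559 in wild-type males. Smtn was called under all 22 alternatives run, whereas Myl6 was called in 17, Csrp1 in 18 and Cald1 in 10.

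Among genes that control contraction they included Cacna1c (1.29), Adra1a (1.07), Ppp1r12b (0.76), Rhoa (−0.89) and Gna11 (−0.77). Adra1a was at 2264 normalized counts in Pou2f3-/- females and 1261 in wild-type females, and at 7058 and 8229 in the males. Of these 5, Rhoa and Gna11 each lost the call in 1 of 22 alternatives (library totals), and the other 3 kept it in all.

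Mrtfb (0.51), a myocardin-related cofactor of SRF, was called in 15 of 22, the basal genes Dst (1.27), Jag2 (0.64) and Perp (−0.65) in 22, 14 and 10, and the fibroblast gene Dpt was at −1.78. Relative to Myh11, Acta2 gave −0.64 (adjusted p = 0.049), a call that was lost in 11 of 12 fits with a library left out. The value itself stayed at −0.69 to −0.59 in these fits, with adjusted p of 0.039 to 0.12. With TMM scaling and all 12 libraries no member passed this test.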

How the results depend on the processing

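The 6 contractile genes stayed called higher in males in both genotypes under every alternative run except scaling to Myh11 or Mylk, which measures a ratio (values relative to Mylk are not given for the sexes). With library totals 0 members were called in Pou2f3-/- females, the median of the members turned to 0.16, and Myh11 (0.35), Mylk (0.28), Lmod1 (0.16), Trp63 (0.31), Myl6 (0.02), Krt14 (0.15) and Kdr (0.01) changed sign. For the difference between the sexes in the same setting 2 members were called, Myh11 and Mylk, the median was 0.47, and Acta2 (0.14), Tagln (0.11), Cnn1 (0.17), Mylk (0.59), Trp63 (0.47), Myl6 (0.16) and Cald1 (0.07) changed sign. Between wild-type sexes it gave a member median of 2.38 and 12415 genes in all, with Trp63 (0.50), Cnn3 (0.48), Rock1 (0.24) and Smad3 (0.53) changing sign, and between Pou2f3-/- sexes Trp63 was at 0.04. The shift in the median of all genes is built into this setting.

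Scaled to Myh11, sign changes were Tagln 0.04, Cnn1 0.00, Mylk 0.14 and Trp63 0.32 between male genotypes, Lmod1 −0.10 in the difference, and Mylk −0.36 and Lmod1 −0.60 between wild-type and −0.15 and −0.49 between Pou2f3-/- sexes. In the difference, Mylk was at 0.05 with upper-quartile and 0.03 with protein-coding scaling, Lmod1 at −0.03 with the authors' factors, where 1 member (Acta2) was called, and Rock1 at 0.01 between wild-type sexes with those factors. With a library left out, Lmod1 ranged from −0.06 to 0.20, Mylk from −0.26 to 0.06 and Myh11 from −0.06 to 0.32 in the difference, and Trp63 from −0.06 to 0.00 between male genotypes. In such fits 0 to 2 members were called in the difference (2 without wild-type female replicate 1), and 2 to 4 in females. For all of these but library totals the cause was not tested.

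Genes called between male genotypes numbered 42 with edgeR and TMM, 406 with DESeq2, 389 without the filter, 25 with library totals, and 13 to 635 with a library left out (635 without Pou2f3-/- male replicate 1). In the difference 2384 to 5562 genes were called with a library left out, against 4604. Same-numbered mice did not pair (r −0.13 to 0.09), and the replicate block left 3 members called in females, 0 in males, 0 in the difference, 7 between wild-type sexes and 6 between Pou2f3-/- sexes, with member medians of −0.34, −0.31, −0.17, 1.48 and 1.31, so it changed none of these counts. Called higher and lower were 3158 and 3453 genes in Pou2f3-/- females and 4155 and 3635 in Pou2f3-/- males against females. Upper-quartile scaling gave 3962 and 2679, and 3054 and 4985, and library totals 6843 and 360, and 5589 and 1378. Library totals also gave 12121 and 294 between wild-type sexes (3660 and 2863 with TMM), 5732 and 129 in the difference (2390 and 2214), and 8 and 17 between male genotypes (18 and 24).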
